A study of Mus musculus with 2 samples.

Results

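Irx1, Irx2, Pou3f4, Hhex and Etv1 are transcription factors linked to islet cells other than the insulin-producing β-cell. They were taken by symbol from the expression table of a single-cell RNA-sequencing series on mouse pancreatic islets, in which they are 5 of 22383 features. The series holds 1 library from control mice and 1 library labelled TBL/RβKO. Controls were Cre-negative littermates, labelled wildtype. The TBL/RβKO mice carried floxed Tbl1x and Tbl1xr1 with Ins1Cre, a Cre recombinase placed in the endogenous Ins1 gene, so that both transcription co-factors should be lost where Ins1 is active. All mice were 5 weeks old, islets of 4 mice were pooled to 150 islets per group, and the islets were kept in culture at 37 °C overnight before they were dissociated. Each group is thus 1 pooled library with no replicate. No test between the conditions was possible, and the 95% intervals given are exact and cover counting error only.

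Each islet endocrine cell type makes mainly 1 hormone: insulin in β-cells, glucagon (Gcg) in α-cells, somatostatin (Sst) in δ-cells and pancreatic polypeptide (Ppy) in PP cells. Irx1 and Irx2 are Iroquois homeobox factors and Pou3f4 (Brn4) is a POU domain factor, and all of them are known as α-cell genes of the adult islet. Hhex is a homeobox factor that keeps δ-cells differentiated and is also used in endothelium, liver and blood cells. Etv1 is an ETS family activator best known from neurons and from tumours with ETS gene fusions. β-cells that lose their identity can gain transcripts of other islet lineages, and the level of these genes in insulin-rich cells bears on the question the design asks.

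On the GRCm39 build, Irx1 (ENSMUSG00000060969) lies on the minus strand of chromosome 13 at 72106040 to 72111848 with 4 annotated exons. Irx2 (ENSMUSG00000001504), with 5 exons, follows on the plus strand of chromosome 13 at 72776906 to 72782317, 665057 bases further on. Both thus sit in 1 Iroquois gene cluster, and a gene annotated on the opposite strand, Gm20554, overlaps Irx2. Pou3f4 (ENSMUSG00000056854) is a single-exon gene on the plus strand of chromosome X at 109857886 to 109860813. Hhex (ENSMUSG00000024986), with 4 exons, is on the plus strand of chromosome 19 at 37423258 to 37429179. Etv1 (ENSMUSG00000004151), with 13 exons, is on the plus strand of chromosome 12 at 38828851 to 38920483.

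Counts were unique molecular identifiers (UMIs), each standing for 1 captured transcript molecule. Barcodes with more than 2500 detected genes and less than 10% mitochondrial UMIs were kept, 4747 of 7067 in control and 4179 of 5833 in the library labelled TBL/RβKO, with a median of 40626 and 27425 UMIs. Every kept barcode was put in the class of its largest hormone, where that hormone (Ins1 and Ins2 together, Gcg, Sst or Ppy) reached 100 UMIs per 10000. The insulin class held 2877 and 1338 barcodes (control first), the Gcg class 1284 and 1546, the Sst class 223 and 374, the Ppy class 259 and 495, and 104 and 426 barcodes had no hormone at that level. Markers other than the class hormone followed the class names in control: Slc2a2 and Mafa were highest in the insulin class, Ttr in the Gcg class, Rbp4 in the Sst class and Pyy in the Ppy class. The targeted genes went against the label: in the insulin class Tbl1x stood at 96.9 CPM (UMIs of the gene per 1000000 UMIs of the class sum) in control and 351 CPM in the library labelled TBL/RβKO, and Tbl1xr1 at 20.0 and 129 CPM. Whether the 3′ ends counted here lie within the floxed segments is not given in the sources used here, so these counts may not check the deletion. Cre UMIs followed the label, with none in control and 3247 in 329 barcodes of the other library. The libraries shared 14 barcode sequences, and leaving these out moved no member's ratio by more than its counting error.

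All of the 5 genes but Hhex were highest in the Gcg class, and insulin-class barcodes were at or near the bottom for all of them. Irx1, Irx2 and Pou3f4 were highest in the Gcg class in both libraries, Hhex in the Sst class, and Etv1 in the Gcg class with the Sst class next and the Ppy class after it. Levels are given as CPM with their 95% Poisson intervals.

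Irx1 was measured at 62.1 CPM (59.3 to 65.1) in the control Gcg class and 50.4 CPM (48.0 to 52.9) in that of the library labelled TBL/RβKO. It stood at 7.03 and 4.53 CPM in the Ppy class, 2.98 and 2.79 CPM in the Sst class and 2.01 and 2.58 CPM in the insulin class. The Gcg class thus held 79.3% and 80.4% of all Irx1 UMIs, at a level 30.8 and 19.5 times that of the insulin class. The 3 classes at the bottom (Sst, no hormone and insulin) lay between 2.01 and 2.98 CPM and were not separable in order at this depth.

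Irx2 stood at 109 CPM (105 to 113) in the control Gcg class and 90.8 CPM (87.6 to 94.1) in the other. Its Ppy-class level was 23.6 CPM (20.8 to 26.6) and 17.5 CPM (15.7 to 19.3), its Sst-class level 7.28 and 10.1 CPM and its insulin-class level 3.63 and 5.66 CPM. Irx2 thus ranked its upper classes like Irx1, with a relatively higher level in the Ppy class: there were 3.36 (2.60 to 4.38) and 3.85 (3.07 to 4.88) Irx2 UMIs per Irx1 UMI in the Ppy class, against 1.75 (1.65 to 1.85) and 1.80 (1.70 to 1.91) in the Gcg class. UMIs are counted once per transcript end and were not divided by gene length, so such ratios were compared only between classes.

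Pou3f4 was the scarcest member. It was found at 19.7 CPM (18.1 to 21.4) in the control Gcg class and 24.4 CPM (22.7 to 26.1) in that of the library labelled TBL/RβKO, at 4.77 and 5.29 CPM in the Ppy class, and at 0.560 and 1.33 CPM in the insulin class. No UMI of Pou3f4 was seen in the 104 control barcodes without hormone, which allows a level of up to 0.967 CPM. It resembled Irx2 in its ranking of the Gcg and Ppy classes, while the Sst and insulin classes exchanged places between the libraries on as few as 6 and 12 Sst-class UMIs.

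Hhex showed a different profile, with 209 CPM (197 to 222) in the control Sst class and 159 CPM (151 to 167) in the other. In control, the barcodes without hormone (25.5 CPM) and the Ppy class (25.0 CPM) came next and did not differ beyond counting error, and they were followed by the Gcg class (9.38 CPM) and the insulin class (7.19 CPM). In the library labelled TBL/RβKO the values were 22.5, 22.3, 7.12 and 12.4 CPM, so that the Gcg and insulin classes changed places. Since insulin-class barcodes are many and large, they held 42.8% and 32.6% of all Hhex UMIs, next to 36.7% and 43.1% in the Sst class.

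Etv1 was the most abundant member and the broadest. It reached 552 CPM (543 to 560) in the control Gcg class, 378 CPM (361 to 394) in the Sst class and 287 CPM (277 to 297) in the Ppy class, against 43.5 CPM in the insulin class. In the library labelled TBL/RβKO the order was the same, at 521 CPM (513 to 529), 373 CPM (361 to 385), 236 CPM (230 to 243) and 106 CPM. The non-β endocrine classes thus exceeded the insulin class in both libraries, by less in the library labelled TBL/RβKO, and none of their intervals overlapped within a library.

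**Figure D1:**
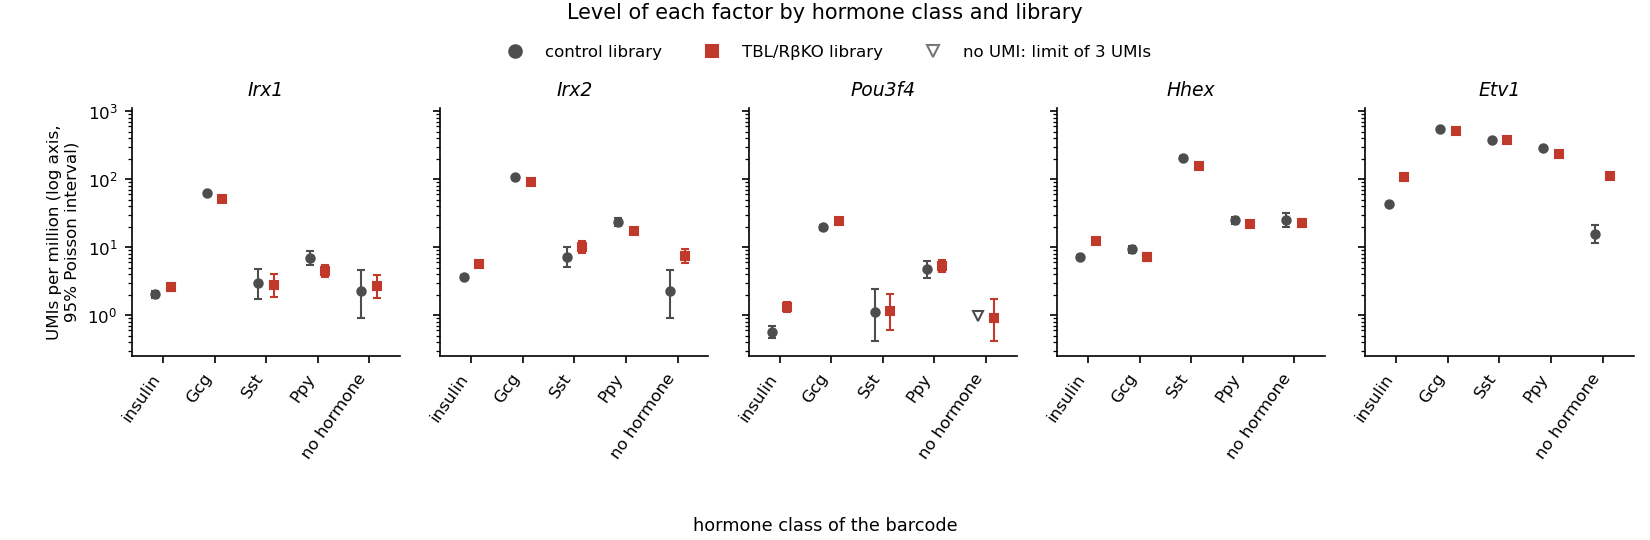
Levels of the 5 genes by hormone class, in CPM on a log axis, 1 panel per gene, with control as grey circles, the library labelled TBL/RβKO as red squares and 95% Poisson intervals as bars; an open triangle marks the limit of 3 UMIs where no UMI was found. Irx1, Irx2 and Pou3f4 peaked in the Gcg class (62.1, 109 and 19.7 CPM in control), Hhex in the Sst class (209 CPM) and Etv1 in the Gcg class (552 CPM), and the insulin-class values were higher in the library labelled TBL/RβKO for all of them on this scale, though Irx1 had a log2 ratio of -0.09 without hormones in the scaling.

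The share of barcodes with a UMI gave the same picture and showed how much it rests on depth. Irx1 was seen in 63.2% and 55.8% of Gcg-class barcodes, Irx2 in 82.8% and 76.3% and Pou3f4 in 29.3% and 32.7%. With every barcode thinned to 5000 UMIs, a number that all kept barcodes reached, the shares were 25.2% and 21.9%, 40.8% and 35.9%, and 9.11% and 11.6%. Hhex was seen in 93.3% of Sst-class barcodes in either library (61.0% and 55.9% thinned) and Etv1 in 97.8% and 96.7% of Gcg-class barcodes (82.0% and 84.2% thinned). As a measure of RNA from other cells, barcodes without hormone that carried 20 or more UMIs per 10000 of macrophage, endothelial, stromal, B-cell, T-cell or ductal markers were counted, 95 in control and 264 in the other library with a median of 26757 and 21794 UMIs. Irx1 was seen in 3.16% and 1.89% of these, Irx2 in 3.16% and 1.14%, Pou3f4 in none and 0.379%, and Etv1 in 20.0% and 14.4%.

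Within the Gcg class, Irx1 and Irx2 were detected together more often than apart. Irx2 was found in 88.9% (86.5 to 91.0) of the 811 control barcodes with an Irx1 UMI and in 72.3% (68.0 to 76.3) of the 473 without. In the library labelled TBL/RβKO the shares were 83.2% of 863 and 67.6% of 683. Part of this was depth, since a deep barcode detects both genes. After thinning to 5000 UMIs, the shares were 49.2% (43.6 to 54.8) of 323 and 38.0% (34.9 to 41.1) of 961 in control, and 41.9% (36.6 to 47.3) of 339 and 34.2% (31.5 to 37.0) of 1207 in the other library, so that the intervals met only in the latter. For the scarcer Pou3f4 such an order could not be resolved after thinning: it was seen in 8.67% (5.84 to 12.3) of control barcodes with Irx1 and 9.26% (7.503 to 11.27) of those without, and in 14.5% (10.9 to 18.7) and 10.8% (9.08 to 12.7) in the other library. With and without Irx2 it was seen in 10.1% and 8.42% of control barcodes and in 13.0% and 10.8% of the others, with overlapping intervals. As counted, all of Irx1, Irx2 and Pou3f4 were seen in 18.2% and 18.4% of Gcg-class barcodes and none of them in 8.4% and 11.6%. After thinning, all of them were seen in 0.935% and 1.55% and none of them in 42.7% and 46.1%.

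The first comparison asked whether the α-cell factors differed in α-cells, which should keep both co-factors because Cre is driven by Ins1. In the Gcg class Irx1 and Irx2 were lower in the library labelled TBL/RβKO, with log2 ratios over control of -0.30 (-0.40 to -0.21) and -0.26 (-0.33 to -0.19), while Pou3f4 was higher, at 0.31 (0.15 to 0.47). Hhex stood at -0.40 (-0.65 to -0.14) and Etv1 at -0.08 (-0.11 to -0.05). The median over all 12632 genes with 50 or more UMIs was 0.10, so Irx1 lay above 5.64% of these genes and Pou3f4 above 82.8%. None of the 5 members passed a log2 ratio of 1 in either direction, which 2.22% (higher) and 0.792% (lower) of all genes did. Scaled to UMIs without hormone and mitochondrial genes, the ratios of Irx1, Irx2 and Pou3f4 were -0.38, -0.33 and 0.23.

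The differences were not evenly spread over the Gcg class. In barcodes with Gcg as the only hormone at 100 per 10000 (519 and 1232), Irx1 stood at 65.0 and 58.1 CPM, Irx2 at 121 and 102 CPM and Pou3f4 at 22.2 and 29.6 CPM, a log2 ratio of 0.42 (0.22 to 0.62) for the last. Per Irx2 UMI there were 0.181 (0.165 to 0.198) Pou3f4 UMIs in control and 0.269 (0.248 to 0.290) in the other library over the whole class, and 0.183 and 0.291 in its one-hormone barcodes. Hhex, at 0.928 and 1.27 CPM there, was close to absent. Gcg-class barcodes with insulin also at 100 per 10000 differed in depth between the libraries: control had 603, at a median of 16563 UMIs, and the library labelled TBL/RβKO had 90, at a median of 37519 UMIs. Irx1 in them was 66.1 CPM in control, as in the rest of the class, and 20.7 CPM in the other library, Irx2 106 and 45.8 CPM, and Etv1 554 and 339 CPM. Insulin made up 0.587% of UMIs in the control marker-bearing barcodes of other cell types, which is close to the limit of 100 per 10000, and 0.130% in those of the other library, so this limit does not separate insulin of the cell from background in control. A doublet caller marked 2.16% and 21.1% of the barcodes with insulin. With doublet scores left out, the log2 ratios of the whole class were -0.25 for Irx1, -0.21 for Irx2 and 0.37 for Pou3f4, within counting error of those above. With 1 hormone they were -0.16, -0.25 and 0.42, of which that of Irx1 moved beyond it.

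Irx1 was higher where glucagon itself was higher. From barcodes with 100 to 500 Gcg UMIs per 10000 to those with 2000 or more, Irx1 went from 36.4 to 68.9 CPM in control and from 26.6 to 57.6 CPM in the other library. Pou3f4 had the same order, from 7.27 to 21.1 CPM and from 7.56 to 24.0 CPM. Irx2 varied less, between 71.5 and 116 CPM in control and between 68.3 and 98.3 CPM in the other library, and Etv1 was highest at the lowest Gcg level, at 788 and 615 CPM. Between libraries at like Gcg levels, Irx1 was lower in the library labelled TBL/RβKO in all 4 bins, while Pou3f4 was 19.2 and 28.0 CPM at 1000 to 2000 Gcg UMIs per 10000, a log2 ratio of 0.54, and 21.1 and 24.0 CPM above that. The breakdowns by second hormone and by hormone level were chosen after the data were seen.

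**Figure D2:**
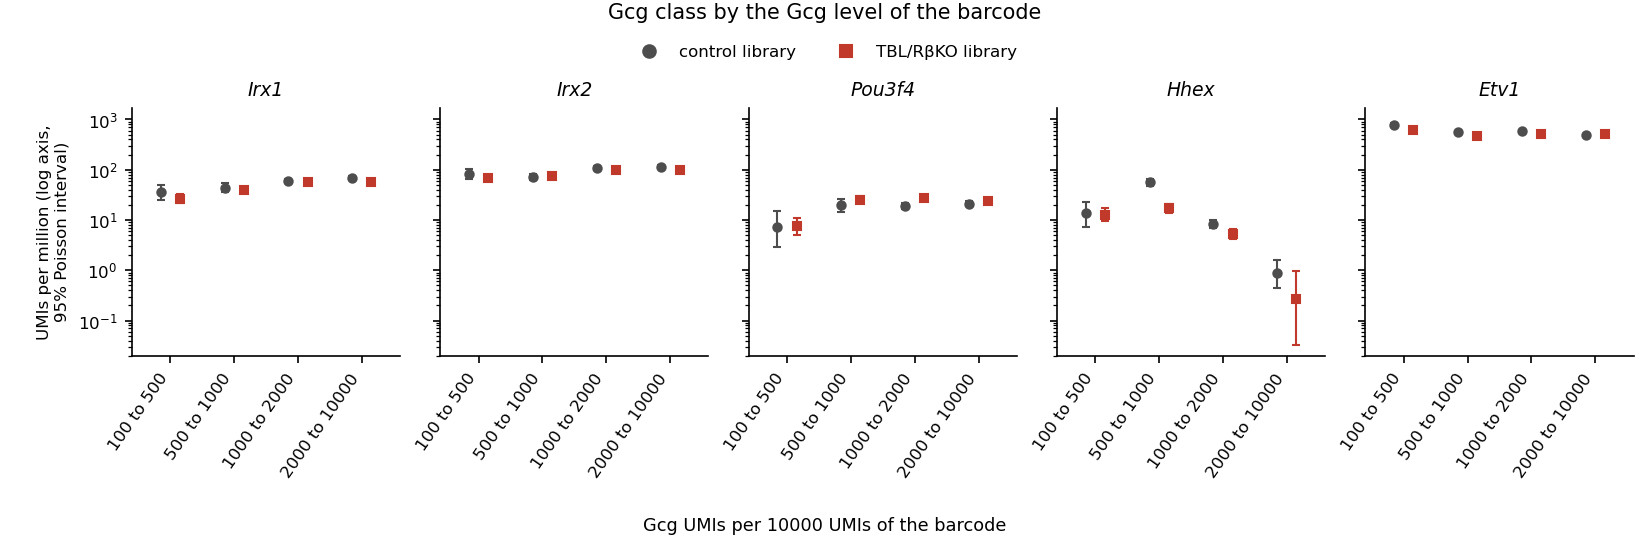
Levels of the 5 genes in the Gcg class, in CPM on a log axis, against the barcodes' Gcg level in UMIs per 10000, with control as grey circles, the library labelled TBL/RβKO as red squares and 95% Poisson intervals as bars. Irx1 and Pou3f4 were higher at higher Gcg in both libraries (36.4 to 68.9 and 7.27 to 21.1 CPM in control), and Hhex was lowest where Gcg was highest (0.894 and 0.267 CPM).

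In the δ-cell class, Hhex was lower in the library labelled TBL/RβKO, at 209 against 159 CPM, a log2 ratio of -0.40 (-0.51 to -0.29), and -0.43 without hormones in the scaling. Barcodes with somatostatin as the only hormone (37 and 124) gave 254 CPM (221 to 292) and 178 CPM (163 to 194). Those that also held Ppy (144 and 234) gave 205 and 152 CPM, so the difference was seen in either kind. Etv1 was near equal at -0.02 (-0.10 to 0.06), and Irx2, an α-cell gene, was 7.28 and 10.1 CPM with a ratio of 0.48 (-0.07 to 1.04). The shares of all 11142 genes past a log2 ratio of 1 were 1.36% (higher) and 0.646% (lower). Of the 3 members with 50 or more UMIs there, none passed.

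Hhex stood at a similar ratio to somatostatin in some groups of barcodes and at a higher one in others. Per 10000 Sst UMIs there were 22.3 (21.05 to 23.69) and 19.2 (18.3 to 20.2) Hhex UMIs in the Sst class, 23.8 (22.4 to 25.3) and 22.5 (20.997 to 23.998) in insulin-class barcodes that also held Sst, and 21.4 and 21.7 in the Gcg class. Gcg-class barcodes that were also Sst-positive (69 and 61) held 79.5 and 61.8 CPM of Hhex, while the 1215 and 1485 others held 0.857 and 1.70 CPM. Most Hhex UMIs of the Gcg class were thus in its Sst-positive barcodes, of which the doublet caller marked 14.5% and 47.5%. In the Ppy class there were 30.4 and 32.4 per 10000 Sst UMIs, above the Sst class in either library. Barcodes with insulin as the only hormone had 42.5 (36.4 to 49.4) and 50.4 (40.8 to 61.6), also above it. Irx1 behaved alike towards glucagon: per 10000 Gcg UMIs there were 3.27 (3.12 to 3.42) and 3.49 (3.33 to 3.66) Irx1 UMIs in the Gcg class and 3.37 (3.00 to 3.78) and 3.34 (2.91 to 3.81) in insulin-class barcodes that also held Gcg. The values were higher in the Ppy class (4.92 and 4.54) and the Sst class (6.28 and 8.05). With insulin as the only hormone they were 7.08 (5.43 to 9.08) and 4.63 (2.39 to 8.09). In barcodes with more than 1 hormone, cells that make both, droplets with more than 1 cell and free RNA cannot be told apart.

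The central comparison was that of the insulin class, where Cre is active. All 5 genes had a higher CPM in the library labelled TBL/RβKO, but for Irx1 the direction turned with the scaling. Irx1 was counted with 367 and 261 UMIs, 2.01 and 2.58 CPM, a log2 ratio of 0.36 (0.12 to 0.59) that became -0.09 without hormone and mitochondrial UMIs. Irx2 stood at 3.63 and 5.66 CPM, a ratio of 0.64 (0.48 to 0.81) and 0.19 without hormones. Pou3f4 stood at 0.560 and 1.33 CPM on 102 and 134 UMIs, 1.24 (0.86 to 1.63) and 0.79.

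Among the factors not tied to α-cells alone, Hhex stood at 7.19 and 12.4 CPM, a log2 ratio of 0.78 (0.67 to 0.90) and 0.33 without hormones. Etv1 had the highest insulin-class level, 43.5 and 106 CPM on 7919 and 10723 UMIs, a log2 ratio of 1.29 (1.25 to 1.33) and 0.84 without hormones. Insulin took 49.6% of all insulin-class UMIs in control and 27.9% in the other library, which lowers every other gene's CPM more in control. The median gene stood at 0.31 by CPM and -0.14 without hormones. On CPM, 12.5% of 13943 genes were higher by a log2 ratio of 1 and 2.52% were lower, and of the 5 members Pou3f4 and Etv1 were higher and none was lower. Etv1 exceeded 91.8% and Pou3f4 91.3% of all genes. The 26 markers of other islet and immune cell types also summed higher in the insulin class of the library labelled TBL/RβKO, 724 against 291 CPM. Ductal markers made 647 and 182 CPM of this. The other lists did not move together. Macrophage markers were lower in that library, at 26.3 against 80.6 CPM, and so were endothelial markers, at 11.5 against 14.5 CPM. Stromal markers were higher, at 21.6 against 1.76 CPM, and B-cell markers at 17.1 against 12.1 CPM. Of the 3 T-cell markers 1 was at 0 in control and 2 in the other library, and every other marker of these lists had counts in both libraries. Leaving out barcodes with 20 or more marker UMIs per 10000 moved none of the 5 ratios beyond its counting error.

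**Figure D3:**
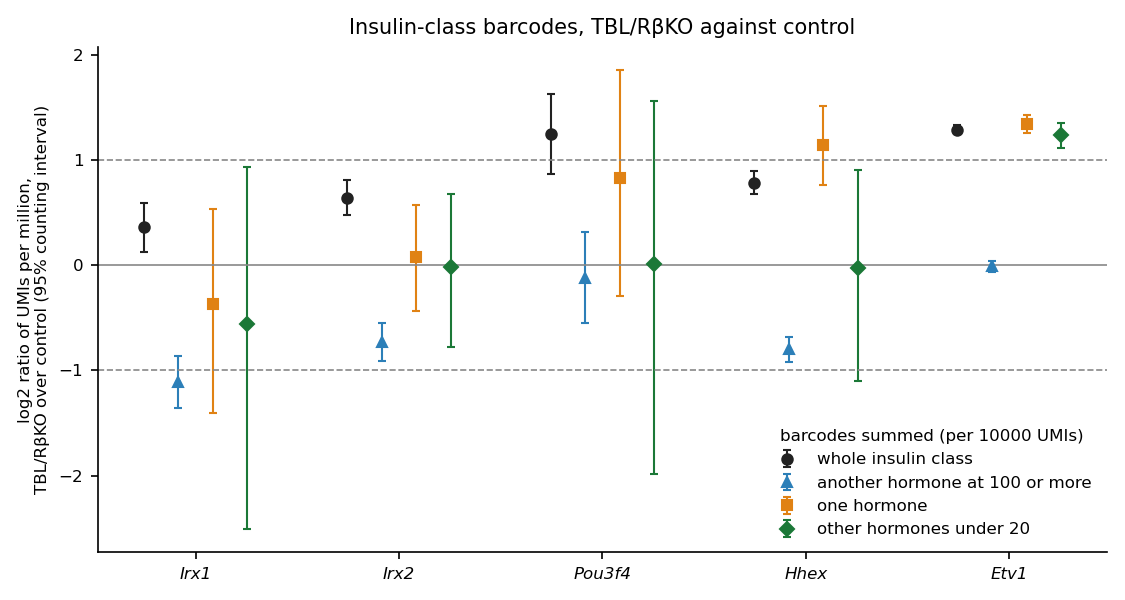
Log2 ratio of CPM, library labelled TBL/RβKO over control, for the 5 genes in the whole insulin class, in its barcodes with another hormone at 100 per 10000, in those with insulin alone and in those with every other hormone under 20 per 10000, with exact 95% intervals and dashed lines at 1 and -1. Etv1 stayed above 1 with insulin alone (1.34) and with other hormones under 20 (1.23), whereas Hhex went from 1.14 to -0.03 between these and the α-cell factors scattered around 0 with wide intervals; Irx1, 0.36 in the whole class, is -0.09 when scaled without hormones.

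The make-up of the insulin class differed between the libraries, and most member UMIs were in barcodes with another hormone. Barcodes with another hormone at 100 per 10000 numbered 468 of 2877 in control and 813 of 1338 in the library labelled TBL/RβKO. Summed over these barcodes, no member was higher in that library. Irx1 stood at 8.37 and 3.86 CPM (log2 ratio -1.11, -1.36 to -0.87) and Irx2 at 13.6 and 8.20 CPM (-0.73). Pou3f4 stood at 2.06 and 1.89 CPM (-0.12), Hhex at 31.2 and 17.9 CPM (-0.80) and Etv1 at 140 and 139 CPM (-0.01, -0.06 to 0.04). The kind of second hormone differed as well. Ppy was the second hormone, alone or with others, in 167 and 691 barcodes, Gcg in 252 and 243 and Sst in 230 and 224. The doublet caller marked 34.8% and 11.4% of insulin-class barcodes with another hormone.

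Which member was high followed which second hormone was present. Irx1 and Irx2 were highest in insulin barcodes that also held Gcg, at 14.5 and 10.5 CPM and at 21.5 and 17.9 CPM. Hhex was highest in those with Sst, at 54.7 and 46.2 CPM, against 18.5 and 16.8 CPM in those with Gcg. Etv1 was high in all 3 kinds, at 164 and 183 CPM with Gcg, 154 and 181 CPM with Sst and 135 and 133 CPM with Ppy. With Gcg and with Sst it was thus higher in the library labelled TBL/RβKO, unlike in the sum over all kinds. Insulin barcodes with Ppy, the kind that was most frequent in the library labelled TBL/RβKO, had 40.1 and 16.5 CPM of Hhex and 6.29 and 3.33 CPM of Irx1, lower there than in control.

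**Figure D4:**
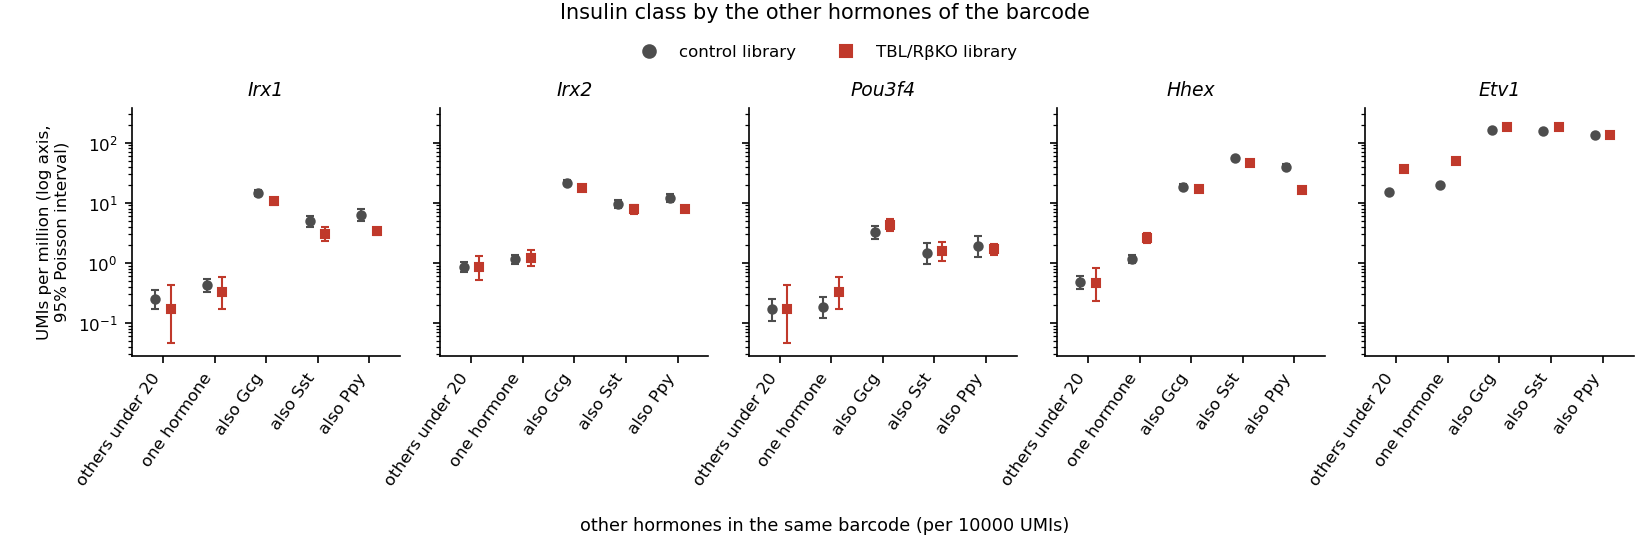
Levels of the 5 genes in insulin-class barcodes with every other hormone under 20 per 10000, with insulin as the only hormone at 100 per 10000, and with Gcg, Sst or Ppy also at 100 per 10000, in CPM on a log axis, with control as grey circles, the library labelled TBL/RβKO as red squares and 95% Poisson intervals as bars. Irx1 and Irx2 were highest with Gcg, Hhex was highest with Sst (54.7 and 46.2 CPM), and only Etv1 differed between libraries beyond its interval where other hormones were under 20 (15.2 and 35.7 CPM).

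With insulin as the only hormone at 100 per 10000 (2409 and 525 barcodes, median 51097 and 62113 UMIs), Etv1 and Hhex were higher in the library labelled TBL/RβKO. Etv1 stood at 19.4 and 49.1 CPM, a log2 ratio of 1.34 (1.25 to 1.43), and Hhex at 1.18 and 2.60 CPM, 1.14 (0.76 to 1.51). Without hormones in the scaling these were 0.99 and 0.79. The α-cell factors were near the limit of detection: Irx1 had 62 and 12 UMIs, a ratio of -0.37 (-1.40 to 0.53), Irx2 166 and 44 UMIs, 0.08 (-0.43 to 0.57), and Pou3f4 27 and 12 UMIs, 0.83 (-0.29 to 1.85). Of all 13083 genes 8.4% were higher and 3.02% lower by a log2 ratio of 1, with a median of 0.19. Of the 4 members with 50 or more UMIs, Etv1 and Hhex were higher and none was lower.

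A second hormone just under the limit could still add transcripts, so the limit was lowered after the data were seen to 20 UMIs per 10000 for every other hormone. This left 2269 control barcodes and 343 of the library labelled TBL/RβKO, with a median of 50945 and 63005 UMIs, insulin at 53.0% and 44.3% of UMIs, and other hormones at like levels (Gcg 484 and 445 CPM, Sst 56.7 and 63.6 CPM, Ppy 270 and 391 CPM). Hhex was then 0.477 and 0.467 CPM on 65 and 11 UMIs, a log2 ratio of -0.03 (-1.10 to 0.90), and Irx2 0.859 and 0.849 CPM on 117 and 20 UMIs, -0.02 (-0.78 to 0.67). Irx1 had 34 and 4 UMIs (-0.56, -2.51 to 0.93) and Pou3f4 23 and 4 UMIs (0.01, -1.98 to 1.56). A difference in these 4 genes was thus not detectable at this depth, and the intervals are wide. In the marker-bearing barcodes of other cell types, Irx1 was 1.05 and 0.677 CPM on 3 and 5 UMIs. Irx2 was 1.40 and 0.406 CPM on 4 and 3 UMIs, so this background is known only roughly. The Irx1 levels, and that of Irx2 in control, were not above it. That of Irx2 in the library labelled TBL/RβKO was set against only 3 UMIs. None of these levels is read as expression. Pou3f4 had no UMI and 1 UMI there, and Hhex was itself at 27.6 and 29.1 CPM in these cells and gives no background.

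Etv1 kept its difference in these barcodes, at 15.2 CPM (14.6 to 15.9) in control and 35.7 CPM (33.4 to 38.2) in the library labelled TBL/RβKO. This was 2.35 times the control level, a log2 ratio of 1.23 (1.12 to 1.35), 0.98 without hormones, and above 96.0% of 12796 genes. At this limit 5.79% of genes were higher and 4.06% lower by a log2 ratio of 1, with a median of 0.09, and of the 3 members with 50 or more UMIs Etv1 was higher and none was lower. An Etv1 UMI was seen in 40.4% of control and 65.0% of the other barcodes, and after thinning to 5000 UMIs in 6.83% (5.83 to 7.95) and 14.0% (10.5 to 18.1). In the barcodes of other cell types the thinned shares were 3.16% (0.656 to 8.95) and 4.17% (2.10 to 7.33) and the levels 10.8 and 8.26 CPM, so the control share lay within the interval of that background while the share in the library labelled TBL/RβKO lay above it.

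Etv1 CPM was lower at 5000 or more insulin UMIs per 10000 than at 2500 to 5000. Among barcodes with insulin as the only hormone, those with 2500 to 5000 insulin UMIs per 10000 (818 and 263) had 27.1 and 46.1 CPM of Etv1, a log2 ratio of 0.76 (0.64 to 0.89), and those with 5000 or more (1480 and 130) had 13.3 and 25.6 CPM, 0.95 (0.75 to 1.14). This order of the 2 bins held in both libraries. Insulin itself took 44.6% and 40.1% of UMIs in the lower of these bins and 57.1% and 55.8% in the upper. A larger insulin share lowers every other gene's CPM, and how much of the order this makes was not tested. The ratio between the libraries was smaller within these bins than over all one-hormone barcodes. At 1000 to 2500 the library labelled TBL/RβKO had 82 barcodes with 80.1 CPM, whereas control had only 7 barcodes, with 19.1 CPM. With other hormones under 20 as well, the ratios were 0.68 (0.52 to 0.85) at 2500 to 5000 and 1.14 (0.93 to 1.35) at 5000 or more.

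The lowest bin, 100 to 1000 insulin UMIs per 10000, was of another kind and held 104 control and 50 other barcodes. There the order of Etv1 was turned, with 224 CPM in control and 131 CPM in the library labelled TBL/RβKO. Of the control barcodes 50 carried markers of non-endocrine cells, against 3 in the other library, and Chga, a granule protein of endocrine cells, was 1438 and 12734 CPM. Hhex was 28.9 and 8.53 CPM in this bin and at or under 4.24 CPM in every bin above it. At 5000 or more insulin UMIs per 10000 it was 0.777 and 0.388 CPM.

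**Figure D5:**
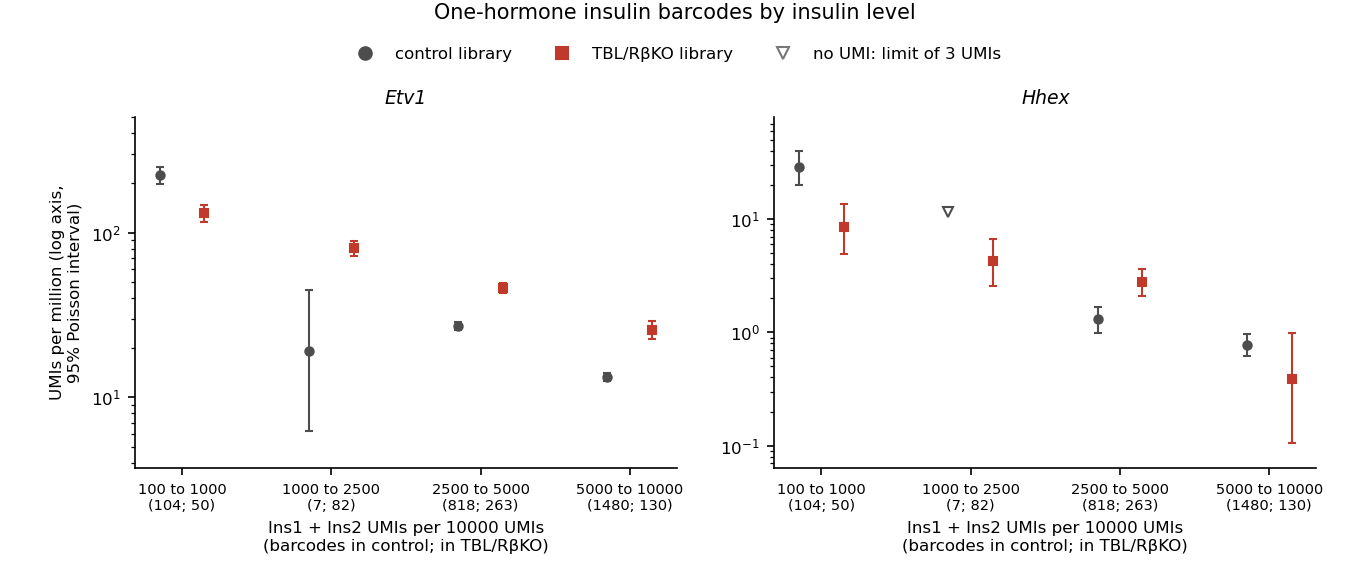
Levels of Etv1 and Hhex in barcodes with insulin as the only hormone, in CPM on a log axis, by the barcodes' insulin level in UMIs per 10000, with the number of barcodes, control as grey circles, the library labelled TBL/RβKO as red squares and 95% Poisson intervals as bars. Etv1 was higher in the library labelled TBL/RβKO at 2500 to 5000 (27.1 and 46.1 CPM) and at 5000 or more (13.3 and 25.6 CPM), and lower in the lowest bin (224 and 131 CPM).

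Etv1 was not higher where a Cre transcript was seen. In the 118 one-hormone insulin barcodes with a Cre UMI it stood at 43.1 CPM (39.1 to 47.4), and in the 407 without one at 51.3 CPM, both above the 19.4 CPM of control. Hhex was 3.66 and 2.21 CPM in the same order. Barcodes with a Cre UMI were deeper, with a median of 74466 against 57514 UMIs. Insulin took 43.7% of their UMIs, against 38.5% in those without one. Finding a Cre UMI depends on depth, so barcodes without one may still come from cells that make Cre. Whether Etv1 goes with Cre was not tested. Split at the upper limit of 6000 detected genes that the study used, Etv1 was 18.4 and 38.97 CPM in barcodes below it and 19.9 and 51.7 CPM at or above it, log2 ratios of 1.08 and 1.37. The difference was thus present in smaller and larger barcodes alike.

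The Ppy class held Etv1 beside lower levels of the α-cell factors. Etv1 was 287 and 236 CPM, a log2 ratio of -0.28 (-0.35 to -0.22) and -0.60 without hormones, Irx1 stood at -0.63 (-1.08 to -0.18) and Irx2 at -0.44 (-0.67 to -0.20). Pou3f4 was 0.15 (-0.34 to 0.65), or -0.17 without hormones, and Hhex -0.16 (-0.38 to 0.06). None of the 5 members passed a log2 ratio of 1, which 8.16% of 11760 genes did upwards and 0.969% downwards, with a median of 0.25 on CPM and -0.07 without hormones.

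PP cells with 1 hormone kept Irx2 and Pou3f4 but little Irx1. In barcodes with Ppy alone (113 and 210), Irx1 was 2.44 and 1.14 CPM, Irx2 13.8 and 11.4 CPM, Pou3f4 6.11 and 5.40 CPM, Hhex 3.26 and 1.70 CPM and Etv1 276 and 226 CPM. There were 5.67 (3.04 to 11.5) and 10.0 (4.84 to 24.0) Irx2 UMIs per Irx1 UMI, and 0.441 and 0.475 Pou3f4 UMIs per Irx2 UMI. Where Gcg was also present (67 and 112), Irx1 was 19.9 and 15.5 CPM, and where Sst was (53 and 91), Hhex was 92.9 and 76.8 CPM. The mixed Ppy barcodes thus carried the factor of the second hormone, as the mixed insulin barcodes did.

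Barcodes without hormone were mostly not endocrine, and Hhex was the only member at a sizeable level in those with markers of other cell types. It stood at 39.5 and 43.3 CPM in the 41 and 40 barcodes with endothelial markers and at 23.9 and 29.0 CPM in the 36 and 52 with macrophage markers. In the library labelled TBL/RβKO it was 46.4 CPM in 60 barcodes with B-cell markers, of which control had none. Stromal barcodes (13 and 81) held no and 1 Hhex UMI. There were 5896 and 4821 Hhex UMIs per 10000 Sst UMIs in all these marker barcodes, far from the 22.3 and 19.2 of the Sst class, so that Hhex here did not come with somatostatin.

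A further 9 control and 162 other barcodes had neither a hormone at 100 per 10000 nor such markers. In the library labelled TBL/RβKO these held 403 CPM of Etv1 on 1051 UMIs, with a UMI in 64.2% of barcodes, and 27.6 CPM of Irx2. The 9 control barcodes had 73.5 and 12.2 CPM. Their Etv1 level was thus of the order of the Ppy, Sst and Gcg classes in one library and lower in the other, where the barcodes were few.

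Relatives of the members were close to silent apart from Etv5 and, in the Sst class, Pou3f1. Pou3f1 stood there at 4.85 and 3.37 CPM on 26 and 35 UMIs. Of 9 paralogues, Irx3, Irx4, Irx5, Irx6, Pou3f1, Pou3f2, Pou3f3, Etv4 and Etv5, only Pou3f1 (0.58) and Etv5 (-0.14) had 50 or more UMIs in the insulin class, and neither passed a log2 ratio of 1. With other hormones under 20, Etv5, the nearest relative of Etv1 in this list with counts, was 7.38 and 8.24 CPM, a ratio of 0.16 (-0.07 to 0.38). In the Ppy class Etv5 was higher, 2.43 and 5.82 CPM, a ratio of 1.26 (0.65 to 1.92) that was 0.94 without hormones. The near identity of family members was not examined, and reads shared between paralogues were not resolved here.

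Other lineage factors were counted beside the members. Meis2, a homeobox factor of the non-β list, passed a log2 ratio of 1 in no class and stood at -0.17 in the insulin class with other hormones under 20. Of the β-cell factors Mafa, an activator of the insulin genes, was 463 and 85.5 CPM in the insulin class (log2 ratio -2.44) and 514 and 211 CPM with other hormones under 20 (-1.28, -1.32 to -1.24). In the Gcg class Mafa had 19.9 and 0.835 CPM, but the marker-bearing barcodes of other cell types had 10.8 and 0.813 CPM, so no difference in α-cells is read from it. Mnx1 was higher in the Ppy class at 0.721 and 7.20 CPM (3.32). Pdx1 (-0.44), Nkx6-1 (-0.68) and Mnx1 (-0.15) did not pass with other hormones under 20, and Pax4 had 1 UMI in all. None of the 7 shared factors (Pax6, Neurod1, Isl1, Nkx2-2, Rfx6, Insm1 and Foxa2) passed in the insulin, Gcg or Sst class, and Neurod1 was higher in the Ppy class at 1.30, or 0.98 without hormones.

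The genes most like each member were sought as a description, by Pearson's r of log2(CPM + 1) over the 10 sums of 5 classes and 2 libraries, among 12295 genes. The sums share libraries, depth and class definitions, so no p was computed. Irx1 was most like Gm648 (0.967), Sstr2 (0.961) and Trpc7 (0.960). Irx2 was most like Minar1 (0.986), Pdk4 (0.985) and Pou3f4 (0.982), and Pou3f4 most like Edn3 (0.991), Avpr1b (0.987) and Pdk4 (0.984). The α-cell factors were thus close to each other, with 0.952 between Irx1 and Irx2. Hhex was most like Sfxn5 (0.987), Dand5 (0.983) and Pcp4 (0.983), and had -0.439 with Irx1. Etv1 was most like Pak5 (0.989), Zfp950 (0.988) and Alcam (0.983), and stood between the others, with 0.795 to Irx2 and 0.216 to Hhex.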

How the data were processed

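Islets of control and TBL/RβKO mice were profiled with a 10x 3′ assay, 1 pooled library per group. The authors deposited UMI counts per gene and barcode, made with Cell Ranger 7.1.0 on GRCm39 per the submitters' processing notes. Whether intronic reads were counted is not given in the sources used here. Raw counts were summed by library and hormone class, and only barcodes with over 2500 genes and under 10% mitochondrial UMIs entered. The study's upper limit of 6000 genes was tried as an alternative. Levels carry exact Poisson, shares exact Clopper-Pearson and ratios exact conditional binomial 95% intervals. UMIs are molecules, but the intervals cover counting error only. A gene was called past a log2 ratio of 1 or -1 with 50 or more UMIs over both libraries. Limits for a count of 0 are 3 UMIs. Doublets were left in and marked with Scrublet, set at 0.8% per 1000 barcodes. Named genes were the 5 members, 9 paralogues, 15 islet lineage factors, the targeted genes and the 3 most alike genes per member with 500 or more UMIs. Some of the lineage factors are not reported here. These 5 members and all lists were chosen with earlier results of these data known. The 31 named genes fixed by symbol matched the GENCODE M39 annotation by Ensembl ID. Scripts were tested on simulated data and used Python 3.11.15, numpy 2.4.6, scipy 1.17.1, pandas 2.3.3, scanpy 1.11.5, anndata 0.12.19 and matplotlib 3.10.9.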

Additional observations from a re-analysis of the deposited data

Results flagged for a closer look

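Scaled to UMIs without hormone and mitochondrial genes, 3 members stood in opposite directions in different classes, with intervals that exclude 0. The difference between classes was itself not tested, as each group is 1 library. Irx2 had a log2 ratio of 0.19 in the insulin class against -0.33 in the Gcg class and -0.76 in the Ppy class. Hhex had 0.33 in the insulin class against -0.47, -0.43 and -0.49 in the Gcg, Sst and Ppy classes. Etv1 had 0.84 in the insulin class against -0.16 in the Gcg class and -0.60 in the Ppy class. With every other hormone under 20 per 10000, the insulin-class ratio on the same scaling was -0.27 (-1.04 to 0.42) for Irx2, -0.29 (-1.36 to 0.64) for Hhex and 0.98 (0.86 to 1.09) for Etv1. For Irx2 and Hhex, with 20 and 11 UMIs in the library labelled TBL/RβKO, these intervals include the values of the whole insulin class and those of other classes, so the direction was not detectable at this depth.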

How the results depend on the processing

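Of 126 alternative values, 61 were counted as the same and 65 as moved, for log2 ratios by their counting error. These counts include shares of genes, which carry no counting error, and thinned shares of barcodes, which can only fall. No log2 ratio past 1 changed sign, but that of Pou3f4 in the insulin class went from 1.24 to 0.01 with other hormones under 20. No paired analysis was possible because each group is 1 library. Log2 ratios in the insulin class, in the order Irx1, Irx2, Pou3f4, Hhex and Etv1, were 0.36, 0.64, 1.24, 0.78 and 1.29. They became 0.93, 1.02, 1.74, 1.04 and 1.60 with doublet scores left out, -0.37, 0.08, 0.83, 1.14 and 1.34 with 1 hormone, and -0.09, 0.19, 0.79, 0.33 and 0.84 when scaled without hormones. With other hormones under 20, chosen after the data were seen, they were -0.56, -0.02, 0.01, -0.03 and 1.23. With barcodes weighted equally Irx1 was -0.01, Irx2 0.24 and Etv1 0.89. With fewer than 6000 genes Irx2 was -0.01 and Etv1 1.24. Etv1 was 1.34 at a class threshold of 500 and 1.23 over all barcodes, and with insulin at 1000 or more, also chosen after the data were seen, it was 1.23 and Hhex 0.48. In the Gcg class Irx1 (-0.30) was -0.19 with fewer than 6000 genes and -0.16 with 1 hormone, Irx2 (-0.26) was -0.14 with fewer than 6000 genes, -0.33 without hormones and -0.18 weighted equally, and Pou3f4 (0.31) was 0.47 with fewer than 6000 genes. Hhex in the Sst class (-0.40) was -0.15 with fewer than 6000 genes, -0.26 at a threshold of 500, -0.51 with 1 hormone and -0.26 weighted equally. Etv1 in the Ppy class (-0.28) was -0.01, -0.19, -0.60 and -0.17 with fewer than 6000 genes, a threshold of 500, no hormones in the scaling and equal weights. With a minimum of 1 UMI, 22.6% of genes were higher in the insulin class, 7% higher and 7.17% lower in the Gcg class, 7.59% and 6.18% in the Sst class and 14.7% and 4.87% in the Ppy class. With 200 UMIs it was 1.18% and 0.248% in the Gcg class, 0.756% and 0.228% in the Sst class and 0.429% lower in the Ppy class. Thinned to 5000 UMIs, the shares of insulin-class barcodes with a UMI in control and the other library were 1.15% and 1.49% (Irx1), 2.22% and 2.91% (Irx2), 0.278% and 1.05% (Pou3f4), 2.43% and 4.78% (Hhex) and 15.3% and 32.6% (Etv1). The causes were not tested. With 1 pooled library per group, the spread between animals is unknown and genotype, pool and library cannot be told apart.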

Other observations

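Among deposited barcodes that did not pass the limits on genes and mitochondrial UMIs, Etv1 stood at 140 CPM in control and 286 CPM in the library labelled TBL/RβKO, and Hhex at 4.12 and 14.7 CPM. In ductal-marker barcodes without hormone, Hhex was 7.60 CPM in 5 control barcodes and 81.6 CPM in 26 barcodes of the library labelled TBL/RβKO.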
